A study of Mus musculus with 18 samples.

Results

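The genes described here encode 8 enzymes of amino acid metabolism that are linked to the transcription factor ATF4: Asns, Cth, Cbs, Pck2, Pycr1, Aldh18a1, Gpt2 and Bcat1. They were taken by name from the 56748 gene IDs of the count table, and all 8 matched by symbol. These genes and the lists used below were chosen with earlier results of these data known. Counts set beside shares of all genes are therefore descriptions and not independent comparisons. The cells were RN2, a mouse line of acute myeloid leukemia with the MLL-AF9 fusion and NrasG12D, labelled wild type and grown in RPMI medium with serum, and every group carried a lentiviral construct. The 6 groups of 3 libraries were nCas9, a Cas9 nickase; intact BE, a base editor whose evolved APOBEC1 deaminase (evoA1) is active without a drug, under vehicle or rapamycin; its catalytic mutant, carrying E63A; and seBE, a base editor switched by a small molecule, under vehicle or rapamycin. Rapamycin was used at 1 nM for 24 h, and cells were sorted on day 5. The sample characteristics also mark nCas9 and the catalytic mutant as vehicle for 24 h, while the treatment protocol names only intact BE and seBE. The promoter of each construct is not given in the sources used here. The libraries of a group are called biological replicates, and nothing says that they came from separate cultures, so p-values measure only how far these samples spread, which may be technical.

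ATF4 is a leucine zipper transcription factor whose mRNA is translated more when eIF2 alpha is phosphorylated, as in amino acid shortage or endoplasmic reticulum stress, and its translation is also raised by mTORC1, the kinase complex that rapamycin inhibits. Its targets include enzymes that make or convert non-essential amino acids, transporters and aminoacyl-tRNA synthetases. ASNS makes asparagine from aspartate and glutamine, and leukemia cells with little of it are known for sensitivity to asparaginase. CBS and CTH carry sulfur from homocysteine through cystathionine to cysteine. ALDH18A1 and PYCR1 catalyse the first and last steps from glutamate to proline in mitochondria. GPT2 is the mitochondrial alanine transaminase, PCK2 the mitochondrial phosphoenolpyruvate carboxykinase, and BCAT1 the cytosolic transaminase of branched-chain amino acids.

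ATF4 binds with C/EBP partners to composite sites, and the letters TGATGNAA were searched on both strands in RefSeq promoter windows of build GRCm38.p6, from 250 bases before to 50 after each start. Of the 8 genes, 7 had a window, and Cth had none. The motif was in the windows of 3 of these 7, Asns, Pycr1 and Pck2, against 4.51% of the 27025 genes with a window, and it was not in those of Cbs, Aldh18a1, Gpt2 or Bcat1. The 250 bases before the start of these 3 genes are shown 5′ to 3′ on the gene's strand, because Asns moved in most comparisons, Pck2 in several and Pycr1 in none, and all 3 hold the letters. Capitals mark the motif. The windows lie at chr6:7693210-7693459 (minus strand) for Asns, chr14:55540016-55540265 (plus strand) for Pck2 and chr11:120643749-120643998 (minus strand) for Pycr1.

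Asns: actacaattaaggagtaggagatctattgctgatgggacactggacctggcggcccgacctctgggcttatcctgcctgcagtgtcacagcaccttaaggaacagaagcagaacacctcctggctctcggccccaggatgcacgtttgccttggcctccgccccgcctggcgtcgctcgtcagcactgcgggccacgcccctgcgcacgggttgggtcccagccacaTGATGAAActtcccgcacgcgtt

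Pck2: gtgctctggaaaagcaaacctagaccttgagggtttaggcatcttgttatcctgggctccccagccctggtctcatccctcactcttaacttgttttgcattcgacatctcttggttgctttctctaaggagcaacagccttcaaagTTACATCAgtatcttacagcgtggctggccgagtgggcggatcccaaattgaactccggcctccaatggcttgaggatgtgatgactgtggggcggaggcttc

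Pycr1: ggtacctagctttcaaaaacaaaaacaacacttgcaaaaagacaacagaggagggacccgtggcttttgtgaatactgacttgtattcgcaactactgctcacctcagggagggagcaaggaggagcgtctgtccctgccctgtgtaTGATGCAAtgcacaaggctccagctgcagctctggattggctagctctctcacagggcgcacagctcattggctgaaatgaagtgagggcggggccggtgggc

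The Asns match, TGATGAAA, lay on the gene's own strand, 23 to 16 bases before the start. In Pycr1 the match TGATGCAA was also on the gene's strand, 103 to 96 bases before the start. In Pck2 it was on the opposite strand at the same distances and reads TTACATCA on the strand shown. A match describes the letters of these windows.

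Library totals were 13835979 to 23284932 counts. Of all genes, 14985 passed a filter on low counts, and 7 of the 8 enzymes were among them, all except Cbs. The summed level of 8 myeloid leukemia markers was 1821 to 2254 CPM, counts scaled to the library size, in every library. Single markers moved within this sum. With rapamycin in intact BE, mean Itgam went from 134.7 to 200.8 CPM and Kit from 149.3 to 184.9, while Mpo went from 288.6 to 232.6. By edgeR's test at an adjusted p under 0.05, 2 of the 8 were higher there and 0 lower, against 1.98% of all tested genes higher. The summed markers of T, B, erythroid, fibroblast, endothelial and epithelial cells were each at most 1.03 CPM. Mitochondrially encoded genes took 1.78% to 2.25% of counts in the 6 intact BE libraries and 2.66% to 5.54% in the other 12. The second nCas9 library stood apart from all others on the second principal component, at 62.98 against -24.54 to 21.48. The gene with the most counts over all libraries took 0.153% of counts in the third catalytic mutant library, against 1.248% to 3.025% in the others. In bulk samples, fewer cells of a type and less RNA per cell cannot be told apart.

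Per length of exon, Asns was the most abundant of the 8 at a mean of 39.0 RPKM (CPM per kilobase of exon) over 18 libraries, ranging from 22.2 to 62.1. Aldh18a1 followed at 27.0 RPKM and Pck2 at 14.1 RPKM. The length used is that of all annotated exons of a gene together, 7806 bases for Pck2 and 2735 for Asns, and this order depends on it. Without the length, Pck2, Aldh18a1 and Asns were nearly level, at means of 110, 109.8 and 106.6 CPM. Cth stood at 5.02 RPKM, Gpt2 at 3.69, Pycr1 at 2.43 and Bcat1 at 1.62. Their ranges over libraries differed in width: Cth ran from 1.39 to 13.6 RPKM and Aldh18a1 only from 21.1 to 32.2. Cbs, which makes the cystathionine that CTH cleaves, was at 0.0335 RPKM, with 0 to 13 counts per library and no more than 0.571 CPM. Its 6 groups overlapped, so no difference in Cbs was detectable at this depth. In GRCm38 (GENCODE M21) the genes lie at chr6:7675169-7693254 (Asns), chr3:157894248-157925077 (Cth), chr17:31608894-31637238 (Cbs), chr14:55540266-55551242 (Pck2), chr11:120635712-120643769 (Pycr1), chr19:40550257-40588463 (Aldh18a1), chr8:85492576-85527560 (Gpt2) and chr6:144993835-145076184 (Bcat1), Pck2 and Gpt2 on the plus strand and the others on the minus strand. Among the genes that overlap a member in the annotation, only Gm10876 at Pck2 and Gm26666 at Bcat1 share exon bases, on the opposite strand. They held 18 and 2 counts over all libraries, against 36051 for Pck2 and 4925 for Bcat1.

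The order of the 6 groups was alike at its ends for most of the enzymes. A difference among the 6 groups was called for 6 of the 7 tested genes, all except Pycr1 (adjusted p = 0.135), against 31.4% of all genes; here and throughout, calls are by edgeR's quasi-likelihood F test with Benjamini-Hochberg adjustment over all tested genes, at a threshold of 0.05. Intact BE under rapamycin had the lowest mean CPM of Asns, Cth, Pck2, Aldh18a1, Gpt2 and Bcat1. For Asns, Cth, Pck2 and Gpt2 its libraries did not overlap those of the group next above it, while for Aldh18a1 and Bcat1 they overlapped those of seBE under rapamycin. The share of all tested genes with this order or such a gap is not given here, so these values describe the enzymes only. For Pycr1 intact BE under rapamycin was level with seBE under rapamycin, at 7.92 ± 1.16 CPM and 7.92 ± 1.58 (SD, n = 3 each). nCas9 had the highest mean of Asns, Cth, Pck2, Pycr1 and Gpt2, and intact BE under vehicle that of Aldh18a1. For Bcat1, nCas9 and intact BE under vehicle were level at 20 ± 2.09 and 20.01 ± 1.49 CPM (SD, n = 3 each). The summed CPM of the 8 genes was 524 ± 44.8 in nCas9, 407 ± 9.45 in the catalytic mutant, 421 ± 34.9 in intact BE and 370 ± 16.9 in seBE under vehicle (SD, n = 3 each). Under rapamycin it was 252 ± 6.28 in intact BE and 344 ± 10.6 in seBE. Asns, Pck2 and Aldh18a1 make up most of these sums.

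**Figure D1:**
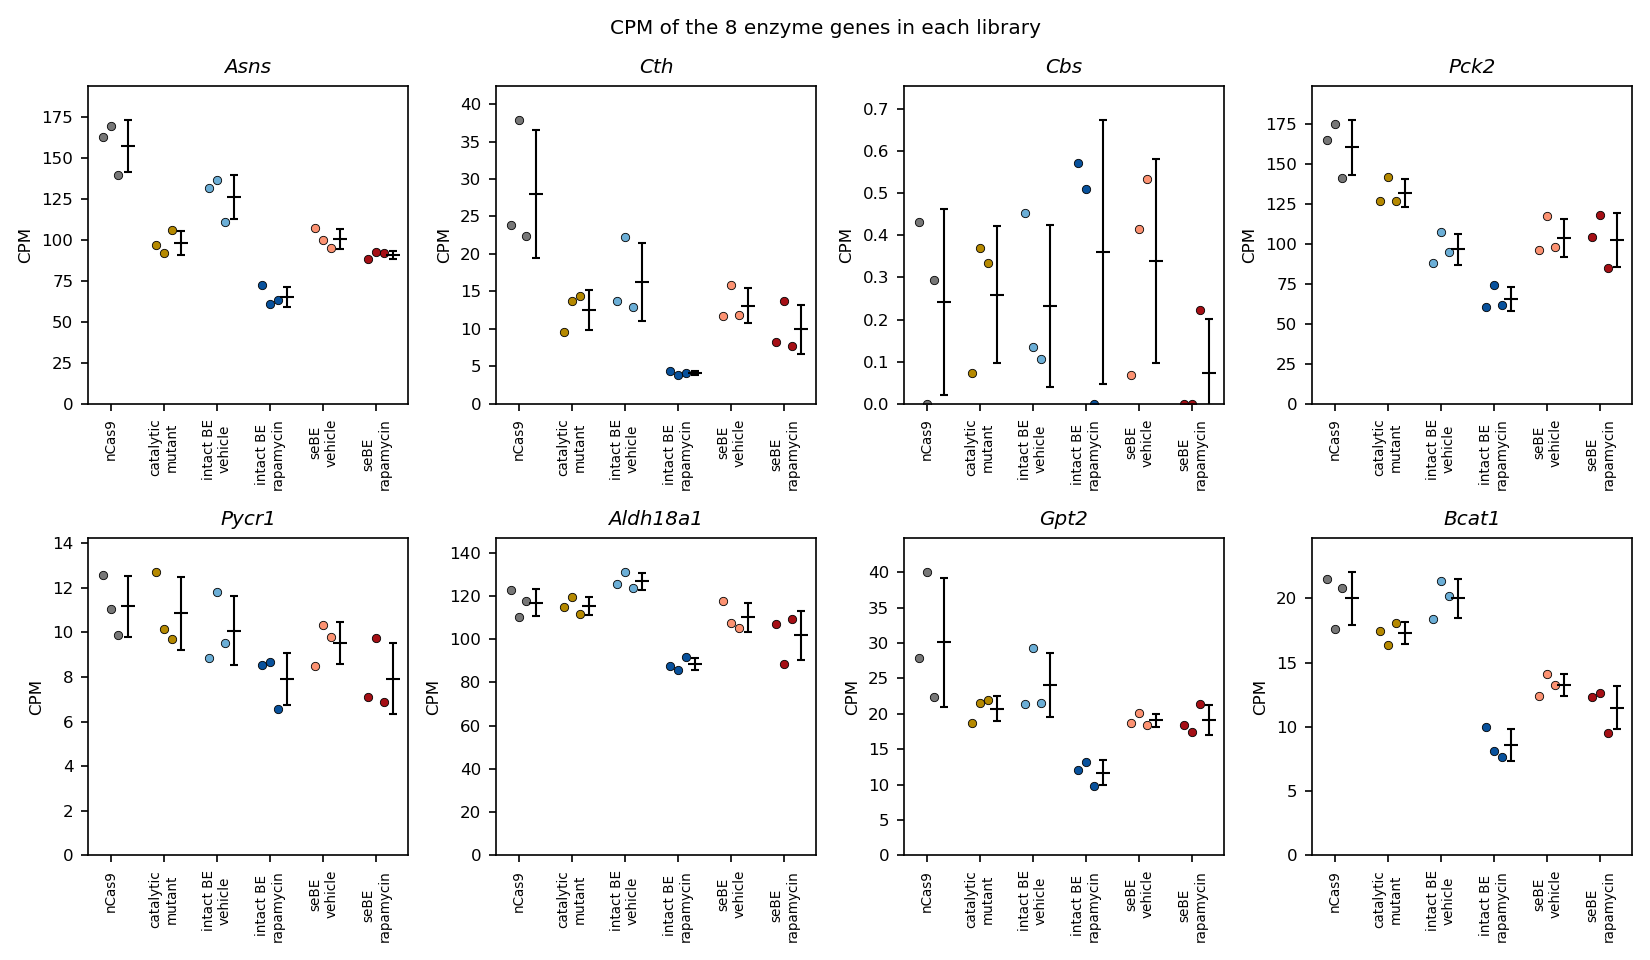
CPM of the 8 enzyme genes in each of the 18 libraries, by group on the horizontal axis; points are libraries and bars the mean ± SD of 3. The dark blue points of intact BE under rapamycin lie lowest for Asns (60.8 to 72.3 CPM) and Cth (3.87 to 4.43 CPM), and Cbs never exceeds 0.571 CPM.

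The comparison of rapamycin with vehicle in intact BE asks what the drug does to these genes in cells whose editor needs no drug. Of the 7 tested enzymes 6 fell and 0 rose, all except Pycr1, while 1.34% of all tested genes fell. The median log2 fold change of the 7 was -0.95, against -0.004 over all tested genes. Libraries of the groups did not overlap for any of the 7, rapamycin being lower each time, as for 11.8% of all tested genes.

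Asns, the asparagine maker, stood at 132, 137 and 111 CPM under vehicle and at 72.3, 60.8 and 63.2 CPM under rapamycin. Every rapamycin library was lower than every vehicle library by a wide margin. The log2 fold change was -0.95 ± 0.0892 (SE; adjusted p = 8.36e-09), so that Asns fell by 48.2%.

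Cth, which releases cysteine from cystathionine, had 13.7, 22.3 and 12.9 CPM under vehicle and 4.43, 3.87 and 4.15 CPM under rapamycin. The vehicle libraries varied, with the second the highest, and the rapamycin libraries were close together. Its log2 fold change of -1.97 ± 0.247 (adjusted p = 5.23e-06) was the largest among the 7, and Cth fell by 74.4%. The lowest count behind any of these 7 genes was 76, for Cth under rapamycin.

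Bcat1, which moves the amino group of leucine, isoleucine and valine, was at 18.4, 21.4 and 20.2 CPM under vehicle and 9.96, 8.15 and 7.66 CPM under rapamycin. All rapamycin libraries were far lower, and its log2 fold change was -1.22 ± 0.156 (adjusted p = 3.93e-06).

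Gpt2, which makes alanine from pyruvate, had 21.4, 29.4 and 21.6 CPM under vehicle and 12.02, 13.24 and 9.802 CPM under rapamycin. The groups were apart, the second vehicle library being the highest. The log2 fold change was -1.04 ± 0.169 (adjusted p = 1.24e-04).

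Pck2, which turns mitochondrial oxaloacetate into phosphoenolpyruvate, stood at 88.0, 107 and 94.7 CPM under vehicle and 60.5, 74.2 and 61.9 CPM under rapamycin. The second library was the highest in each condition, and the groups did not overlap. Its log2 fold change was -0.56 ± 0.108 (adjusted p = 0.00197).

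The proline enzymes differed in what could be called. Aldh18a1, the first step, had 125, 131 and 124 CPM under vehicle and 87.8, 85.9 and 91.5 CPM under rapamycin, with little spread and a clear gap, and fell by 0.52 ± 0.0798 on the log2 scale (adjusted p = 5.95e-05). Pycr1, the last step, had 8.85, 11.8 and 9.54 CPM under vehicle and 8.51, 8.66 and 6.58 CPM under rapamycin. The Pycr1 groups came close without overlapping, and its log2 fold change of -0.34 ± 0.197 missed the threshold (adjusted p = 0.452, 95% confidence interval -0.74 to 0.057). The 6 calls held in every alternative fit and without each library of the 2 groups in turn.

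**Figure D2:**
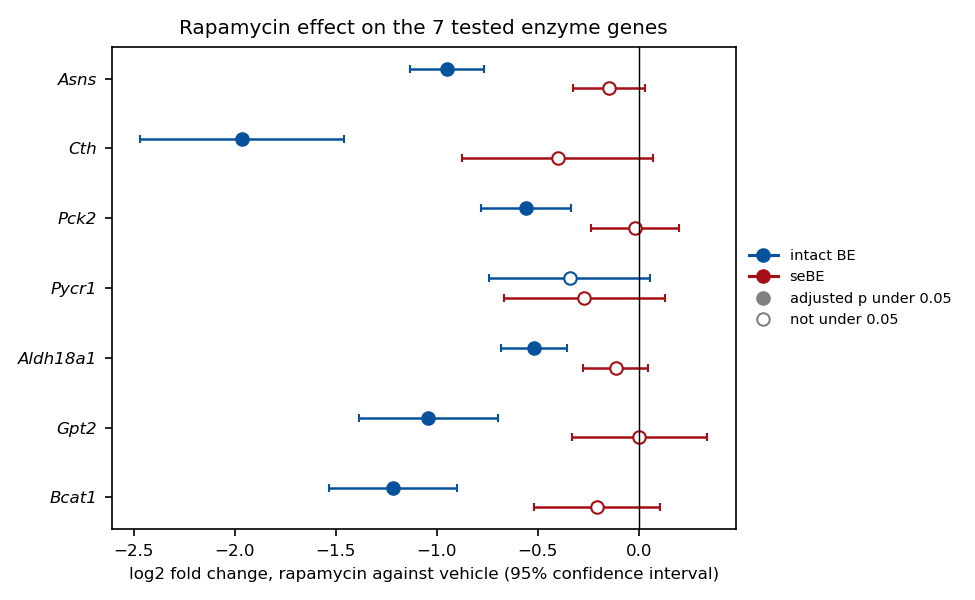
log2 fold change of rapamycin against vehicle (horizontal axis) for the 7 tested enzymes, in intact BE (blue) and seBE (red), with 95% confidence intervals; filled points had an adjusted p under 0.05. The 6 filled points are all in intact BE, from -0.52 for Aldh18a1 to -1.97 for Cth, and the seBE points lie between -0.40 and 0.00.

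In seBE the same dose and time of rapamycin gave 0 calls among the 7 enzymes by edgeR's test, with 0% of all tested genes called. At an unadjusted p under 0.05 there were 493 genes, none of them among the 7, and DESeq2 called 1 gene, not one of these enzymes. Asns had 107, 100 and 95.3 CPM under vehicle and 88.4, 92.5 and 91.9 CPM under rapamycin, and the groups were close but apart. Its log2 fold change was -0.15, with a 95% confidence interval of -0.33 to 0.031. Cth had 11.7, 15.8 and 11.8 CPM under vehicle and 8.32, 13.7 and 7.78 CPM under rapamycin, and the groups overlapped through the second rapamycin library. The Cth log2 fold change was -0.40, with an interval of -0.87 to 0.071 that covers a fall of some size. The other 5 genes overlapped between the groups, with log2 fold changes from -0.27 for Pycr1 to 0.00 for Gpt2. Asns was thus the 1 gene of the 7 with its groups apart, as for 4.42% of all tested genes with rapamycin lower. The Gpt2 interval was -0.33 to 0.34 and that of Pck2 -0.24 to 0.20. All 7 adjusted p-values were 0.999.

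In seBE rapamycin also switches the editor, so the effect of the drug and that of the switch cannot be told apart there. The test of the difference itself, the drug effect in seBE minus that in intact BE, called 4 of the 7 enzymes. All 4 were positive, meaning a smaller fall or none in seBE. Of all tested genes 0.0734% were called in that direction, 11 of 14985. Asns differed by 0.80 ± 0.125 on the log2 scale (adjusted p = 0.00176), and this call held without each of the 12 libraries in turn and in every alternative fit. Cth differed by 1.56 ± 0.337 (adjusted p = 0.039), Bcat1 by 1.01 ± 0.219 (adjusted p = 0.0325) and Gpt2 by 1.05 ± 0.236 (adjusted p = 0.0484). These 3 calls were close to the threshold and rested on the full set of libraries. The Cth call was lost without any rapamycin library of intact BE, the second vehicle library of intact BE, the first or the third vehicle library of seBE or the second rapamycin library of seBE, with adjusted p from 0.111 to 0.18. The Bcat1 call was lost without any vehicle library of seBE, the first or second rapamycin library of seBE, or the second or the third library of either intact BE group, from 0.0528 to 0.171. The Gpt2 call was lost without any vehicle library of seBE, the second or the third rapamycin library of seBE, the second or the third vehicle library of intact BE, or the first or the third rapamycin library of intact BE, from 0.052 to 0.29. It was also lost under upper-quartile scaling, as was that of Cth (adjusted p = 0.0586 for each), and with a filter of 1 CPM in 3 libraries (0.0552). The remaining differences were 0.54 ± 0.152 for Pck2 (adjusted p = 0.225), 0.41 ± 0.113 for Aldh18a1 (adjusted p = 0.203) and 0.07 ± 0.278 for Pycr1 (adjusted p = 0.985). That of Pck2 passed the threshold without the third rapamycin library of seBE (adjusted p = 0.0216) and without a filter on low counts (adjusted p = 0.00696). It also passed with the replicate number as a block (adjusted p = 0.0073). All these differences include the gap under vehicle. There seBE was lower than intact BE in Asns (log2 fold change -0.33), Cth (-0.31), Gpt2 (-0.34) and Bcat1 (-0.59), with only Asns and Bcat1 called.

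Under rapamycin, seBE set against intact BE compares the drug-switched editor with the editor that needs no drug, in the same drug. Here 4 of the 7 enzymes were higher in seBE and 0 lower, against 2.04% of all tested genes called higher. This comparison shares its intact BE libraries with the drug comparison above, whose values stand beside these. Pck2 had 104, 118 and 84.7 CPM in seBE, above the 60.5 to 74.2 CPM of intact BE, with a log2 fold change of 0.64 ± 0.108 (adjusted p = 4.54e-04). Asns, at 88.4 to 92.5 CPM, was above the 60.8 to 72.3 CPM of intact BE, by 0.47 ± 0.0889 (adjusted p = 0.00114). Cth was higher by 1.26 ± 0.247 (adjusted p = 0.0025), the widest gap of the 4. Gpt2 was at 18.5, 17.4 and 21.4 CPM in seBE and at most 13.2 CPM in intact BE, a log2 fold change of 0.71 ± 0.168 (adjusted p = 0.00985), and lost its call without the third intact BE library (adjusted p = 0.0798). Bcat1 and Aldh18a1 overlapped between the groups, with 0.42 ± 0.157 (adjusted p = 0.121) and 0.20 ± 0.0796 (adjusted p = 0.143), while Bcat1 was called without the third seBE library (adjusted p = 0.04) and with the length and GC trend removed (adjusted p = 0.0354). Pycr1 showed 0.00 ± 0.196.

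Against nCas9, the nickase with no deaminase, the labels set intact BE, its catalytic mutant and seBE. The series asks how base editors become toxic to cells. Asns and Cth were lower in all 3, and no enzyme was called higher in any of them. The 3 comparisons share the nCas9 libraries, so their values are given side by side and not counted as separate evidence. In nCas9, Asns was at 163, 170 and 140 CPM, above every library of the other groups. In the catalytic mutant it was at 97.0, 92.0 and 106 CPM, a log2 fold change of -0.68 ± 0.0883 (adjusted p = 8.3e-05). In seBE under vehicle it was at 107, 100 and 95.3 CPM, with -0.64 ± 0.088 (adjusted p = 5.15e-05).

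Intact BE under vehicle, at 111 to 137 CPM, was the nearest to nCas9 in Asns, with a log2 fold change of -0.31 ± 0.0874 (adjusted p = 0.00783). That call was lost without the second nCas9 library (-0.25, adjusted p = 0.0673) and without the third intact BE library (-0.22, adjusted p = 0.107). The mutant and seBE calls of Asns held without each library of their groups.

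Cth in nCas9 was at 23.9, 37.9 and 22.4 CPM, and the second library, which also stood apart on the second principal component, was the highest. The mutant had 9.54, 13.7 and 14.4 CPM, and no nCas9 library overlapped the mutant, seBE or intact BE libraries. The gap to intact BE was very narrow, its highest library being at 22.26 CPM and the lowest nCas9 library at 22.37 CPM. The share of all tested genes without overlap is not given here for comparisons with nCas9, so such gaps describe the named genes only. The log2 fold changes were -1.15 ± 0.228 in the mutant (adjusted p = 0.00396), -1.09 ± 0.226 in seBE (adjusted p = 0.00539) and -0.79 ± 0.224 in intact BE (adjusted p = 0.0106). Without the second nCas9 library they were -0.87 (adjusted p = 0.0545), -0.81 (adjusted p = 0.0666) and -0.51 (adjusted p = 0.128). The seBE call was also lost without the first seBE library (adjusted p = 0.0624), and that of intact BE without its first or the third library (adjusted p = 0.0753 and 0.0762).

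Pck2 was at 165, 175 and 141 CPM in nCas9 and fell in intact BE by 0.73 ± 0.107 on the log2 scale (adjusted p = 1.52e-05) and in seBE by 0.63 ± 0.107 (adjusted p = 0.00104). Neither editor group overlapped nCas9, and both calls held without each library of their groups. The catalytic mutant, at 126, 142 and 127 CPM, overlapped nCas9 by a narrow margin, with -0.28 ± 0.106 (adjusted p = 0.127). It was called lower without a filter on low counts (adjusted p = 0.0369) and with the replicate number as a block (adjusted p = 0.018).

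Gpt2 in nCas9 spread from 22.3 to 40.1 CPM, its second library again the highest. It fell in seBE by 0.66 ± 0.165 (adjusted p = 0.0176) on the log2 scale, while its values in the mutant (-0.53 ± 0.164, adjusted p = 0.0559) and intact BE (-0.32 ± 0.163, adjusted p = 0.167) missed the threshold. The seBE call was lost without the second nCas9 library (-0.39, adjusted p = 0.248), the first seBE library (adjusted p = 0.105) or the third (adjusted p = 0.0823). In the mutant Gpt2 was called with DESeq2 (adjusted p = 0.0374), without a filter on low counts (adjusted p = 0.0156) and with the length and GC trend removed (adjusted p = 0.0435). The replicate number as a block gave a call there too (adjusted p = 0.0301). Without the third nCas9 library, Gpt2 was called in the mutant (adjusted p = 0.00978) and in intact BE (adjusted p = 0.0257).

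Bcat1 was at 21.5, 17.6 and 20.9 CPM in nCas9 and at 12.4, 14.1 and 13.3 CPM in seBE, with no overlap. It fell there by 0.59 ± 0.153 on the log2 scale (adjusted p = 0.0201), a call lost without the first nCas9 library (adjusted p = 0.0916), the first seBE library (adjusted p = 0.145) or the third (adjusted p = 0.0822). In intact BE, at 18.4 to 21.4 CPM, Bcat1 overlapped nCas9 with a log2 fold change of 0.00 ± 0.15. The proline enzymes gave no call against nCas9 in any of the 3 groups. Aldh18a1 in intact BE, at 124 to 131 CPM, was just above the 110 to 123 CPM of nCas9, with 0.12 ± 0.0795 (adjusted p = 0.327).

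In counts, intact BE had 3 of 7 enzymes lower than nCas9, against 9.83% of all tested genes, the catalytic mutant 2 of 7 against 2.06%, and seBE 5 of 7 against 1.93%. The intact BE background is far the largest, and its count of members has to be read against it. The mitochondrial share of counts was 1.78% to 2.02% in intact BE under vehicle and 4.43% to 5.54% in nCas9. In the mutant it was 3.73% to 5.47% and in seBE under vehicle 2.66% to 4.10%. Its part in these results was not tested.

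Intact BE and its catalytic mutant differ in whether the deaminase is active. Between them Asns was higher and Pck2 lower in intact BE, 1 of 7 each way, against 11.6% of all tested genes higher and 9.33% lower. Asns was at 111 to 137 CPM in intact BE and 92.0 to 106 CPM in the mutant, with no overlap and a log2 fold change of 0.36 ± 0.0885 (adjusted p = 0.00311). Pck2 ran the other way, 88.0 to 107 CPM against 126 to 142 CPM, with -0.45 ± 0.107 (adjusted p = 0.00312). Both calls held without each library of the 2 groups. The other 5 enzymes had log2 fold changes from -0.11 for Pycr1 to 0.37 for Cth (0.37 ± 0.23, adjusted p = 0.298) and were not called. With the length and GC trend removed Aldh18a1 was called higher (0.27, adjusted p = 0.0165). The mitochondrial share differed between these groups as well, 1.78% to 2.02% against 3.73% to 5.47%, and its part was not tested.

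seBE under vehicle and the catalytic mutant gave 0 calls among the 7 enzymes by edgeR's test, with 0.0267% of all tested genes called in either direction, and DESeq2 also called none of the 7. At an unadjusted p under 0.05, 2 of the 7 passed, Pck2 (-0.34 ± 0.107, adjusted p = 0.403) and Bcat1 (-0.38 ± 0.154, adjusted p = 0.496), both lower in seBE without overlap, as for 7.17% of all tested genes. With the replicate number as a block, Pck2 was called lower (adjusted p = 0.028). Asns in these groups was 95.3 to 107 and 92.0 to 106 CPM, a log2 fold change of 0.04 with a 95% confidence interval of -0.15 to 0.21.

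seBE set against intact BE, both under vehicle, had 2 of the 7 enzymes lower, against 2.32% of all tested genes. Asns was 95.3 to 107 CPM in seBE and 111 to 137 CPM in intact BE, with -0.33 ± 0.0882 (adjusted p = 0.0313). Bcat1 was 12.4 to 14.1 CPM against 18.4 to 21.4 CPM, with -0.59 ± 0.153 (adjusted p = 0.0263). The groups did not overlap for either gene, yet both calls were fragile. That of Asns was lost without the first or second intact BE library or the second or the third seBE library (adjusted p = 0.187, 0.16, 0.192 and 0.098). That of Bcat1 was lost without any of the 6 libraries (adjusted p from 0.0568 to 0.117), and when a trend on length and GC content was removed (-0.46, adjusted p = 0.106). Under rapamycin the direction between these editors was the opposite for Asns, as given above, since it was lower in intact BE there.

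**Figure D3:**
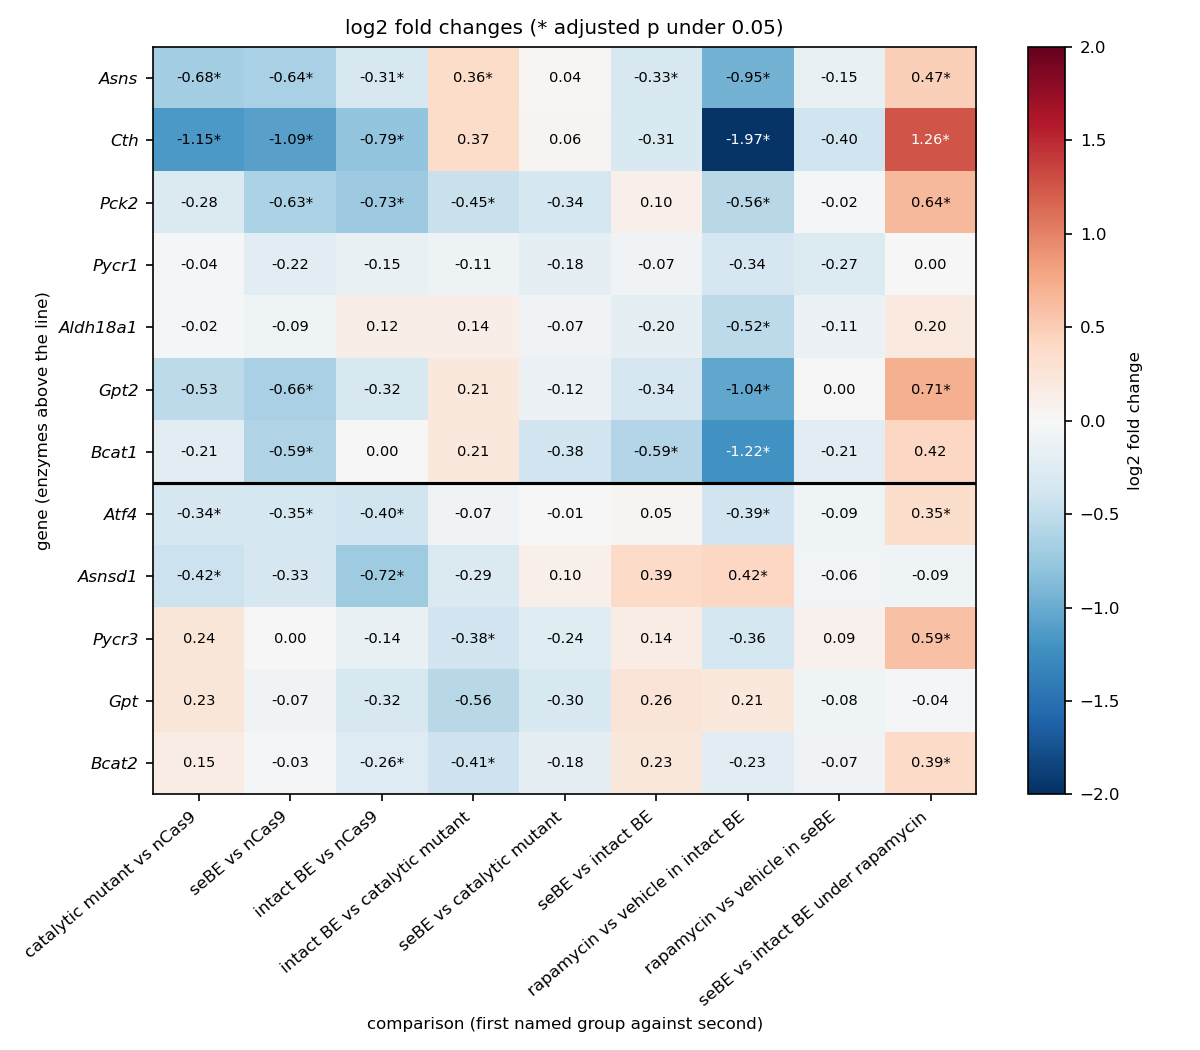
log2 fold changes of the 7 tested enzymes, Atf4 and 4 related genes (rows) in 9 comparisons (columns), red for higher and blue for lower in the first named group; asterisks mark an adjusted p under 0.05. Asns and Cth are blue in the 3 columns against nCas9, the darkest column for the enzymes is rapamycin in intact BE, and the column for rapamycin in seBE has no asterisk.

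Atf4 itself, whose protein level is set mostly at translation and was not measured here, had 554 to 586 CPM in nCas9 and 412 to 484 CPM in the mutant. Intact BE had 417 to 449 CPM and seBE 428 to 454 CPM under vehicle, so nCas9 stood above all. The log2 fold changes against nCas9 were -0.40 in intact BE (adjusted p = 6.2e-05), -0.34 in the mutant (adjusted p = 0.00423) and -0.35 in seBE (adjusted p = 0.00273). Under rapamycin Atf4 was at 311, 348 and 328 CPM in intact BE, below every other library, and fell by 0.39 ± 0.0697 on the log2 scale (adjusted p = 5.79e-04). In seBE it was at 415, 444 and 398 CPM under rapamycin, with a log2 fold change of -0.09 (adjusted p = 0.999). The difference between the drug effects on Atf4 was 0.30 ± 0.0983 and not called (adjusted p = 0.342).

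Asns, Pck2, Pycr1, Gpt2 and Bcat1 have relatives that act in another compartment or share sequence. Pck1, the cytosolic carboxykinase, was at 0 counts in all 18 libraries, so Pck2 was the only carboxykinase mRNA detected. Bcat2, the mitochondrial branched-chain transaminase, was more abundant per length than Bcat1, at 22.4 against 1.62 RPKM. In the same way Pycr3, at 22.4 RPKM, was above Pycr1, at 2.43 RPKM. Gpt, the cytosolic alanine transaminase, was at 2.07 RPKM, below the 3.69 RPKM of Gpt2.

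Under rapamycin in intact BE, where Asns, Bcat1 and Gpt2 fell and Pycr1 was not called, 0 of the 4 tested relatives were called lower. Over all tested genes 1.34% were called lower, so 0 of 4 is near that share and does not set the relatives apart. Bcat2 had -0.23 (adjusted p = 0.204), Gpt 0.21 (adjusted p = 0.839) and Pycr3 -0.36 (adjusted p = 0.182). The Pycr3 value was near the -0.34 of Pycr1. Pycr3 libraries were at 16.2 to 24.8 CPM under rapamycin and 25.2 to 29.3 CPM under vehicle. They did not overlap, as for 11.8% of all tested genes with rapamycin lower, while those of Bcat2 and Gpt overlapped. The difference between an enzyme and its relative was not tested. Asnsd1, a gene with an asparagine synthetase domain, rose by 0.42 (adjusted p = 0.0483), a call lost without any library except the third rapamycin library (adjusted p from 0.087 to 0.357). Against the mutant 2 of the 4 were lower in intact BE, where 9.33% of all tested genes were lower: Bcat2 (-0.41, adjusted p = 0.00163) and Pycr3 (-0.38, adjusted p = 0.0437). With the length and GC trend removed they were -0.24 (adjusted p = 0.05) and -0.09 (adjusted p = 0.756), and the Pycr3 call was lost without any of the 6 libraries (adjusted p from 0.0626 to 0.209). Under rapamycin 2 of the 4 were higher in seBE than in intact BE, against 2.04% of all tested genes, Pycr3 by 0.59 (adjusted p = 0.00886) and Bcat2 by 0.39 (adjusted p = 0.0104). The Pycr3 call was lost without the first library of either group (adjusted p = 0.118 and 0.0865). That of Bcat2 was lost without the first or the third intact BE library or the second seBE library (adjusted p from 0.0778 to 0.0951). Against nCas9, 2 of the 4 were lower in intact BE, where 9.83% of all tested genes were lower. In the catalytic mutant 1 of the 4 was lower than in nCas9, against 2.06% of all tested genes. Rapamycin in seBE and seBE against nCas9 gave 0 calls among the relatives.

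**Figure D4:**
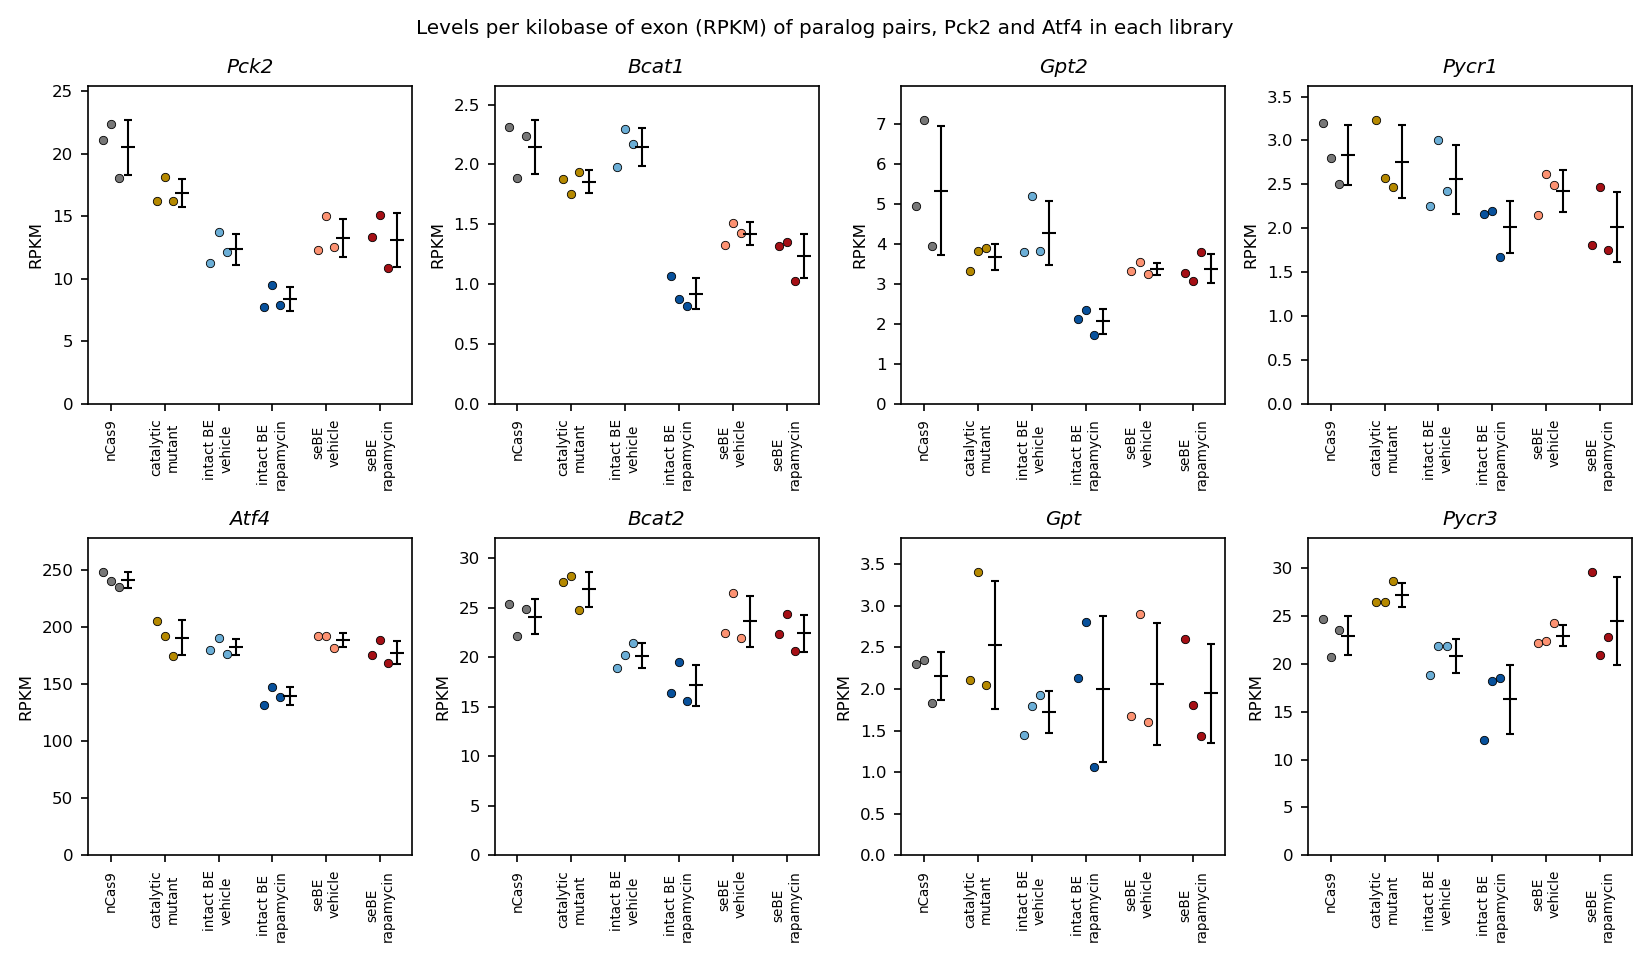
Level per kilobase of exon (RPKM) in each library for Pck2 with Atf4 below it, and for Bcat1, Gpt2 and Pycr1 with a relative below each; points are libraries and bars the mean ± SD of 3, with a separate vertical scale in each panel. Bcat2 and Pycr3 average 22.4 RPKM each against 1.62 and 2.43 for Bcat1 and Pycr1. In intact BE the rapamycin libraries of Bcat1, Gpt2, Pycr1 and the relative Pycr3 lie below the vehicle libraries, while those of Bcat2 and Gpt overlap.

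The other enzymes of the same pathways were counted from lists that leave the 8 out. Under rapamycin in intact BE, of 9 tested genes of asparagine, aspartate and glutamine metabolism 1 rose and 2 fell, against 1.98% of all tested genes higher and 1.34% lower. Ass1, which joins citrulline and aspartate, fell by 0.97 ± 0.214 on the log2 scale (adjusted p = 0.00574), and Got2, the mitochondrial aspartate transaminase, by 0.27 (adjusted p = 0.0182). The Got2 call was lost without the first or second rapamycin library or the second or the third vehicle library (adjusted p from 0.0548 to 0.164). Of 15 genes of the methionine cycle, transsulfuration and glutathione 1 rose and 0 fell. The gene was Sqor, which oxidises sulfide (0.58, adjusted p = 0.0204), and its call was lost without the same 4 libraries (adjusted p from 0.0611 to 0.188).

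In the same comparison, rapamycin in intact BE, 1.98% of all tested genes were called higher and 1.34% lower. Of 6 proline and ornithine genes 1 fell, Oat, the ornithine transaminase that feeds the same intermediate as ALDH18A1 (-0.48 ± 0.081, adjusted p = 1.92e-04). Of 11 genes of branched-chain catabolism 1 rose, Bckdha of the keto acid dehydrogenase (0.48, adjusted p = 0.00223), and 2 fell. These were Ivd (-0.35, adjusted p = 0.0329), whose call was lost without any library except the third rapamycin library (adjusted p from 0.0876 to 0.237), and Dld (-0.28, adjusted p = 0.0354), lost without any except the first rapamycin library (adjusted p from 0.0583 to 0.169). Of 8 genes around pyruvate and alanine 0 were called. In these 5 lists the medians ran from -0.28 for the proline list to -0.004 for the methionine list, against -0.95 for the 7 enzymes and -0.004 for all genes.

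Among 16 ATF4 factors and stress sensors 6 fell and 0 rose under rapamycin in intact BE, where 1.34% of all tested genes fell. Chac1, which degrades glutathione and is a known target of ATF4, had a log2 fold change of -1.75 ± 0.279 (adjusted p = 1.02e-04) and Sesn2, a leucine sensor, of -0.62 ± 0.104 (adjusted p = 1.79e-04). Trib3, a pseudokinase induced by ATF4, had -1.77 ± 0.345 (adjusted p = 0.00223), and Atf4 was given above. Ddit3, the stress factor CHOP, had -0.19 (adjusted p = 0.764). In seBE, rapamycin gave 0 calls in any of the 6 lists. Under rapamycin 6 of the 16 were higher in seBE than in intact BE, against 2.04% of all tested genes, led by Sesn2 (0.54, adjusted p = 0.00141) and Atf4 (0.35, adjusted p = 0.00199).

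Against nCas9, 5 of the 16 were lower and 2 higher in intact BE, where 9.83% of all tested genes were lower and 13.1% higher. In the mutant 4 of the 16 were lower, against 2.06% of all tested genes, and in seBE 5, against 1.93%. In intact BE they were led by Ddit3 (-1.32, adjusted p = 1.98e-05), followed by Atf4. Eif2ak1, the heme-regulated eIF2 alpha kinase, was higher there (0.43, adjusted p = 3.65e-04). In seBE the order began with Nupr1, a stress-induced chromatin protein (-1.94, adjusted p = 0.00159). Of the pathway neighbours in intact BE against nCas9, 1 was higher and 2 lower of 9 in the asparagine list, 3 and 1 of 15 in the methionine list, 2 and 1 of 6 in the proline list, 3 and 2 of 11 in the branched-chain list, and 2 and 0 of 8 around pyruvate. Oat (0.35, adjusted p = 0.00163), Mtr, the methionine synthase (0.49, adjusted p = 4.45e-05), and Mat2a, which makes S-adenosylmethionine (0.35, adjusted p = 3.65e-04), were higher. Bckdhb of the keto acid dehydrogenase (-0.93, adjusted p = 7.1e-04) and Asnsd1 (-0.72, adjusted p = 5.69e-05) were lower. Oat was thus higher in intact BE than in nCas9 and lower with rapamycin, 2 comparisons that share the intact BE vehicle libraries.

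Over the 18 libraries, the genes with the pattern most like Asns were Psat1, a serine biosynthesis enzyme, and Gars, the glycyl-tRNA synthetase, at Pearson r of 0.973 and 0.967 of log2 CPM among 9715 genes with at least 5 CPM on average. Cth was the third at 0.939, followed by Pfkp at 0.924 and Fam84b at 0.921. The other members were lower in this order, Gpt2 at 0.907, Bcat1 at 0.861, Aldh18a1 at 0.763, Pck2 at 0.755 and Pycr1 at 0.615, and Atf4 stood at 0.862. These are descriptions over libraries that share 6 groups and 1 control. Without the 3 libraries of intact BE under rapamycin, r was 0.946 for Psat1, 0.872 for Cth, 0.516 for Pck2 and 0.498 for Aldh18a1. Without the 2 libraries farthest from the median of Asns it was 0.971 for Psat1 and 0.918 for Cth, and Spearman's rho over all 18 was 0.959 and 0.889. Within groups, after removal of group means, r was 0.64 for Psat1, 0.725 for Gars, 0.488 for Cth and 0.514 for Gpt2, but 0.035 for Pck2 and -0.071 for Atf4.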

How the data were processed

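Per the labels' protocols, poly(A) RNA from sorted cells gave directional mRNA libraries. The authors deposited raw counts per gene in 1 table. Per the submitters' processing notes, tools were fastp 1.0.1, STAR 2.7.1a, SAMtools 1.9, featureCounts from Subread 2.0.3 and DESeq2, on GRCm39; the annotation release and the strand setting were not given in the sources used here. Coordinates, exon lengths and promoters printed here are of the older GRCm38 (GENCODE M21 and RefSeq) and serve for position, sequence and RPKM only.

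All 18 libraries entered 1 fit of 6 group means (R 4.3.3, edgeR 4.0.16, TMM, filterByExpr, robust quasi-likelihood F tests). The 14985 tested genes held 99.93% of counts, and the biological coefficient of variation was 13.3%. Benjamini-Hochberg adjustment ran over all tested genes of a comparison. SE is the log2 fold change divided by the square root of F. CPM uses TMM-scaled library sizes. The members and lists were chosen with earlier results of these data known; genes named from a list are at most 4 per comparison, in order of adjusted p, with Ddit3 under rapamycin named after its value was seen. Alternatives were DESeq2 1.42.0, upper-quartile scaling, no filter, 1 CPM in 3 libraries, a replicate block, compared groups alone and leaving out each library. Removal of a length and GC trend, with and without the block, was added after seeing the data. The trend was a spline regression on transcript length and GC content in each library, entered in edgeR as an offset. A related gene is not reported here and was left out of the lists.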

Additional observations from a re-analysis of the deposited data

Results flagged for a closer look

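The drug effect differed between the 2 editors for 4 of the 7 tested enzymes by a test of the difference itself (edgeR's quasi-likelihood test, adjusted over all genes). All 4 differences were positive, and 0.0734% of all tested genes were called in that direction. In seBE the drug also switches the editor, and the effects of drug and switch cannot be told apart there. The effect in seBE minus that in intact BE was 0.80 for Asns, 1.56 for Cth, 1.05 for Gpt2 and 1.01 for Bcat1 on the log2 scale. In each of these genes all 3 rapamycin libraries of intact BE were below its 3 vehicle libraries, while in seBE only Asns kept the groups apart. Such gaps with rapamycin lower were found for 11.8% of all tested genes in intact BE and 4.42% in seBE. Asns held its call without each library, and the others did not.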

How the results depend on the processing

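No member changed sign in a result that was called. Of 412 values of the 28 called member results under alternatives, 357 kept the call and 55 lost it, while 23 values gained one. For the difference between drug effects, the number of members called was 2 in place of 4 under upper-quartile scaling, 3 with the 1 CPM filter, 5 without a filter and with the replicate block, and 6 with both trend removal and block. Pck2 was the gain without a filter (adjusted p = 0.00696) and with the block (0.0073), and Pck2 and Aldh18a1 the gains with both (5.64e-04 and 0.0133). The number was 1 in place of 2 for seBE against intact BE with the length and GC trend removed. With both trend removal and block the number was 2, but Bcat1 was lost (adjusted p = 0.0706) and Aldh18a1 was called lower (-0.27, adjusted p = 0.0128). For the catalytic mutant against nCas9 it was 4 in place of 2 without a filter, with the replicate block and with both trend removal and block, by Pck2 (adjusted p = 0.0369, 0.018 and 7.03e-04) and Gpt2 (0.0156, 0.0301 and 0.013). For seBE against the catalytic mutant it was 1 in place of 0 with the block and with both, Pck2 (adjusted p = 0.028 and 0.0108). Leaving out a library in turn gave 1 to 4 members for intact BE against nCas9, 1 to 3 for the mutant against nCas9, 2 to 5 for seBE against nCas9, 0 to 1 for seBE against intact BE, 3 to 5 for the same under rapamycin and 1 to 4 for the difference between drug effects. It stayed at 6 for rapamycin in intact BE, 6 for any difference among groups, 2 for intact BE against the mutant, and 0 for rapamycin in seBE and for seBE against the mutant.

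Same-numbered libraries correlated at -0.069 to 0.115 (median 0.017) after removal of group means, with 1 of 45 pairs over 0.1. Pairs with other numbers had a median of -0.007, and 13 of 18 libraries correlated best with their own number. Pck2 was highest in the second library of all 6 groups. The main fit did not take the numbers as pairs, but whether they pair is not settled, and several Pck2 calls changed with the block.

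Over all genes, counts moved by more than 1.5 times as follows. For the mutant against nCas9, 644 became 1061 with DESeq2, 985 with the block, 245 with the trend removed and 423 with the compared groups alone. For seBE against nCas9, 684 became 1077 with DESeq2, 1089 with the block and 1278 with both block and trend. For intact BE against the mutant, 3141 became 1560 with the trend removed and 2032 with both. For seBE against the mutant, 4 became 19 with DESeq2, 22 without a filter, 32 with the block, 9 with the trend removed and 45 with both. For seBE against intact BE, 598 became 1151, 945, 1173 and 318 in these 4 fits, and 1837 alone. For rapamycin in intact BE, 497 became 1033 with both and 873 alone. For seBE against intact BE under rapamycin, 703 became 1085 with the block, 1237 with both and 312 alone. For the difference between drug effects, 28 became 75, 66, 65, 76 and 176 with DESeq2, no filter, block, trend and both. Leaving out a library in turn, these counts ran from 122 to 748 for the mutant and 122 to 907 for seBE against nCas9, 1662 to 2989 for intact BE and 2 to 6 for seBE against the mutant, 52 to 518 for seBE against intact BE and 256 to 1114 under rapamycin, 214 to 398 for rapamycin in intact BE, 0 to 1 in seBE and 11 to 56 for the difference. Upper-quartile scaling moved the higher share of calls from 57.2% to 44.1% for intact BE against nCas9, 55.5% to 44.9% against the mutant, 57.7% to 41.3% for seBE against nCas9 and 42% to 54.2% for seBE against intact BE.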
